A study of Mus musculus with 12 samples.

Results

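The genes described here are 10 genes of the YAP/TEAD pathway, taken by symbol from a table of read counts for 27179 genes. They are the target genes Ccn1, Ccn2, Ankrd1, Amotl2, Axl, Lats2 and Ajuba, and the factors Yap1, Wwtr1 and Tead1. The group was chosen by its results in these libraries, among them the level of Ccn1 in doxycycline against control. That comparison is therefore given for these genes as a description, with no test. For the members, p-values from comparisons that share libraries with it are not independent of the choice. RNA was sequenced from MC38-idAdpgkG, a line made from the mouse colon carcinoma line MC38 of strain C57BL/6. It carries a stably transfected construct for Adpgk(R304M), a mutated glycolytic enzyme that serves as a neoantigen. The protein is joined to turboGFP, its expression is induced by doxycycline, and it can be degraded on demand. The labels do not say whether the line is 1 clone, or give the promoter beyond its inducibility, and the cells' own Adpgk gene was not described as altered. All 4 groups received 20 ng/mL mouse interferon-gamma (mIFNg) for 51 h, so no group shows cells without the cytokine. The control group received mIFNg alone. The doxycycline group also received 1 µg/mL doxycycline for the whole 51 h. The dTAG-13 group received 1 µM dTAG-13, a small molecule that directs tagged proteins to degradation, for the last 3 h. The doxycycline plus dTAG-13 group received both on the same schedules. Each group had 3 libraries, and the labels describe these as technical replicates taken from 1 biological sample. The p-values therefore measure the spread between libraries of 1 culture and not between cultures.

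YAP (Yap1) and TAZ (Wwtr1) are transcriptional coactivators that do not bind DNA themselves and act through the TEAD family of DNA-binding proteins. The kinases LATS1 and LATS2 of the Hippo pathway phosphorylate YAP and TAZ, which keeps them in the cytoplasm or marks them for destruction. Cell contact, cytoskeletal tension and growth signals feed into this switch, and in the intestine YAP is known for its part in regeneration and in tumour growth. Several targets, among them Lats2 and Amotl2, encode inhibitors of YAP and so form feedback loops. The pathway acts mainly through the location and stability of YAP and TAZ proteins, which RNA levels do not measure.

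TEAD proteins bind the core GGAATG, which reads CATTCC on the other strand, and the promoters are shown first because the members were grouped as TEAD targets. RefSeq promoter windows of build GRCm38.p6, the assembly called mm10 in the submitters' processing notes, were matched for 8 of the 10 genes. Ccn2 and Tead1 had no entry. An exact GGAATG on either strand was found in the 250 bases before the annotated start of 7 of these 8 genes, against 12.64% of all 32851 windows. The count is by gene, where Lats2 and Wwtr1 have more than 1 window, and the share is by window. Known TEAD targets were listed as members, so this comparison is a description and no test. The following sequences run 5′ to 3′ on the gene's strand up to the base before its start, with the core in capitals. They are the promoters of 3 targets that lie wholly outside the annotated gene. That of Ccn1 holds 1 core, and those of Ankrd1 and Ajuba hold 2.
Ccn1 promoter, chr3:145649986-145650235, minus strand: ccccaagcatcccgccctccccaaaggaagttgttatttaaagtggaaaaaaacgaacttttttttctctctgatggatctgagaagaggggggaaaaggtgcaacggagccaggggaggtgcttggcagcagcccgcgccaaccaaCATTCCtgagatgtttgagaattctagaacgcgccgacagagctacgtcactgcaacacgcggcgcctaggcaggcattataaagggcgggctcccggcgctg
Ankrd1 promoter, chr19:36119845-36120094, minus strand: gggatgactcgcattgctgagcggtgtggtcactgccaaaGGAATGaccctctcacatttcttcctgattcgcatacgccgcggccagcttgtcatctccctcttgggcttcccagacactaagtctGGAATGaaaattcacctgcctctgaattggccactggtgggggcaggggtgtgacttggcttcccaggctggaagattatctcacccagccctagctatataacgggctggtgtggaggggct
Ajuba promoter, chr14:54577662-54577911, minus strand: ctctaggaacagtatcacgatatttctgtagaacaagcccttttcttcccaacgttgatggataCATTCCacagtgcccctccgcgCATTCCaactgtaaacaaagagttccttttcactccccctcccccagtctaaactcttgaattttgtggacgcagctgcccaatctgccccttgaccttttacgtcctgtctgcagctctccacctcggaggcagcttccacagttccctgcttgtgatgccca
The Ccn1 core began 103 bases upstream of the start, on the opposite strand. The Ankrd1 cores began 210 and 123 bases upstream on the gene's own strand, and only 1.02% of all windows held 2 or more cores in their upstream 250 bases. The Ajuba cores began 186 and 164 bases upstream, both on the opposite strand. The other 5 matches are shown with 10 bases on each side, to compare what surrounds the core.
Amotl2, 65 bases upstream, opposite strand: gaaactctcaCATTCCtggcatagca
Axl, 233 bases upstream: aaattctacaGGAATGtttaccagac
Yap1, 141 bases upstream: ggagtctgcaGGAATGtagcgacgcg
Wwtr1, 136 bases upstream: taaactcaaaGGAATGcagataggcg
Lats2, 4 bases after the start: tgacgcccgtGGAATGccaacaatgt
Lats2 was the gene with no core upstream of its start. The Amotl2 window lies inside the annotated span of that gene, before an inner start. A second annotated start of Wwtr1 placed the same match 170 bases upstream. Neither the AP-1 motif TGANTCA nor the CArG box, the element bound by serum response factor, was found upstream of any of the 8 genes on either strand. Those motifs were present in 6.75% and 1.47% of all upstream windows. No match of a motif overlapped a match of another. A match is a run of letters and was not measured as a bound site.

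**Figure D1:**
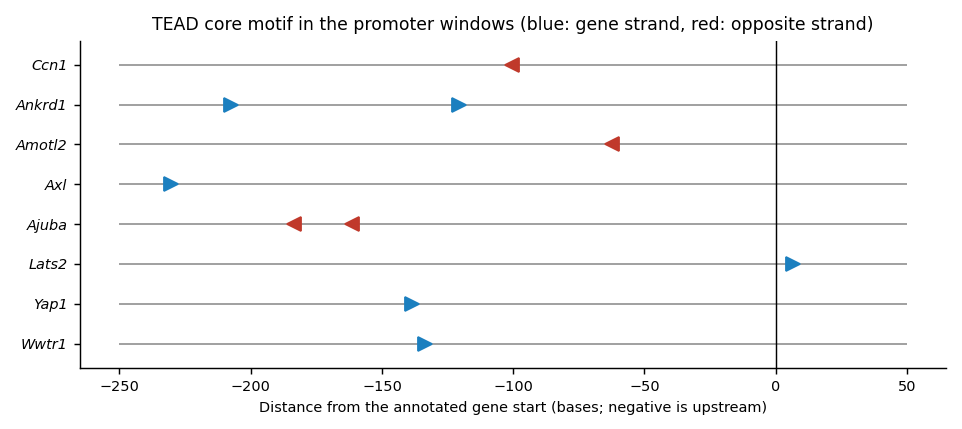
Position of each GGAATG match (triangles; blue on the gene's strand, red on the opposite strand) in the RefSeq promoter windows of 8 genes, in bases from the annotated start. The matches of 7 genes lie upstream, from 65 to 233 bases, and that of Lats2 lies just past the start.

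The libraries held 22165538 to 32809573 counts, and levels are given in counts-per-million (CPM), with library sizes adjusted by TMM, the trimmed mean of M values. A gene was called where edgeR's quasi-likelihood test gave a Benjamini-Hochberg adjusted p under 0.05 over the 12910 genes that passed a filter on low counts. In 3 groups, library 3 stood farther from libraries 1 and 2 than those stood from each other. The chi-square per gene was 4.48 to 8.8 for pairs with library 3 and 2.43 to 2.75 for the pair of libraries 1 and 2. Within the dTAG-13 group it was 3.08 to 3.34. The labelled cell type, colon carcinoma, was not matched by its markers: none of 10 colon epithelial genes reached a mean of 1 CPM, and Epcam and Cdx2 had no count in any library. Of 8 mesenchymal markers, 4 were above 1 CPM, with a sum of 2555 to 2633 CPM in control and 2336 to 2362 CPM with doxycycline. That sum was 1966 to 1989 CPM with dTAG-13 and 1691 to 1746 CPM with both compounds, so it was lower in the groups where most members were lower. Vim and Fn1 make up most of that sum. Dcn rose with dTAG-13 alone, by 0.28 on the log2 scale (SE 0.0325, edgeR adjusted p = 7.32e-09), and Pdgfra was at -0.05 (edgeR adjusted p = 0.0996). Its part in the results was not tested. Summed immune markers stayed at or under 1.96 CPM.

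Levels of different genes were compared per kilobase of the union of a gene's annotated exons. Axl, a receptor tyrosine kinase and YAP target, was highest in control cells, at 167.3 ± 4.06 RPKM, the CPM per kilobase of exon (SD, n = 3). Ccn1 followed at 142.5 ± 2.27 RPKM and Wwtr1 at 106.6 ± 1.84 RPKM. Ankrd1 and Yap1 came next at 24.9 ± 0.166 and 24.7 ± 0.276 RPKM and overlapped each other. Amotl2, Ajuba and Tead1 all lay at 16.4 to 16.5 RPKM with overlapping libraries, and Lats2 was lowest of the 9 expressed genes at 9.93 ± 0.0632 RPKM. The length chosen matters for genes with several transcripts: per kilobase of the longest transcript, a choice made after seeing the data, Yap1 stood at 43.3 ± 0.484 RPKM, above Ankrd1 at 35.5 ± 0.237 RPKM, and Ajuba, at 17.6 ± 0.246 RPKM, stood below Amotl2 and Tead1. The order moved mainly through Ccn1. It stood below Wwtr1 with doxycycline, at 52.5 ± 1.18 RPKM, and first with both compounds, at 163.2 ± 5.63 RPKM against 128.5 ± 2.82 RPKM for Axl.

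Ccn1 (Entrez gene 16007, chr3:145646971-145649985) encodes a secreted matricellular protein, formerly called Cyr61, and is among the most used readouts of YAP activity. Ccn1 was measured at 289, 283 and 292 CPM in the control libraries and at 109, 104 and 106 CPM in the doxycycline libraries. With dTAG-13 alone it was at 221, 235 and 235 CPM, and with both compounds at 328, 342 and 319 CPM. The 4 groups did not overlap: doxycycline alone was lowest and the combination highest. Doxycycline against control, the contrast behind the choice of these genes, had a log2 fold change of -1.44 (SE 0.0285). In the 6 libraries that contrast did not use, doxycycline went with the opposite direction: Ccn1 was 1.43-fold higher with doxycycline plus dTAG-13 than with dTAG-13 alone (log2 fold change 0.52, SE 0.027, edgeR adjusted p = 1.17e-18). Ccn1 fell with dTAG-13 in cells without doxycycline, by 0.32 on the log2 scale (SE 0.027). In doxycycline-treated cells Ccn1 was 3.11-fold higher with dTAG-13 (log2 fold change 1.64, SE 0.0286), at percentile 99.7 of all tested genes. That comparison uses the doxycycline libraries whose low Ccn1 level was behind the choice, so its size is not independent of the choice and no p is given. The comparison of dTAG-13 with control likewise shares its control libraries with the choosing contrast, and no p is given for Ccn1 there either. The doxycycline effect with dTAG-13 minus that without it was 1.96 (SE 0.0393), a difference that includes the choosing contrast and was not tested. In bulk RNA, fewer cells with a transcript and less of it per cell cannot be told apart.

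Ccn2 (Entrez gene 14219, chr10:24595442-24598683), formerly Ctgf, is the closest relative of Ccn1 in common use as a YAP readout, and it was all but absent. It had 2, 0 and 0 reads in the control libraries and 1, 1 and 0 with doxycycline. It had 2, 1 and 2 reads with dTAG-13, and 4, 1 and 0 with both compounds. In 11 of 12 libraries this was under the 3 reads that a count of 0 allows, equal to 0.0941 to 0.134 CPM, and Ccn2 failed the low-count filter. No difference between groups was detectable at this depth, and no fold change is given. Ccn2 overlaps the long non-coding gene Gm15270, and the strand setting of the counting is not given in the sources used here. Of the other CCN genes only Ccn4 passed the filter, and it did not pass the test in the 3 tested comparisons.

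**Figure D2:**
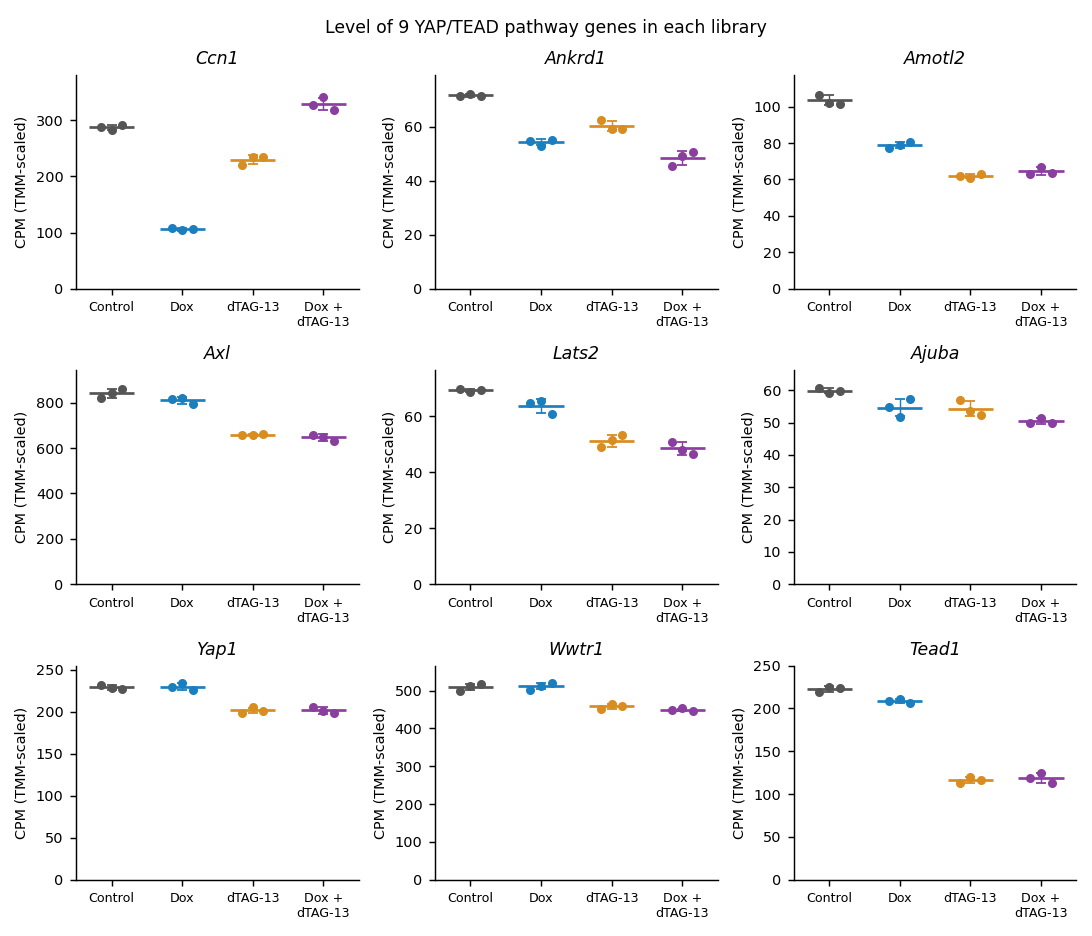
TMM-scaled CPM of the 9 expressed genes in each of 12 libraries (points), with the mean (line) and SD (bars) of the 3 libraries of a group. Ccn1 is lowest with doxycycline and highest with both compounds, while Tead1, Axl, Lats2, Yap1 and Wwtr1 are lower in both groups with dTAG-13.

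Ankrd1 (Entrez gene 107765, chr19:36111965-36119844), which encodes an ankyrin-repeat protein of the nucleus and sarcomere, was highest in control cells and lowest with both compounds. Its levels were 71.5, 72.3 and 71.4 CPM in control and 54.9, 53.1 and 55.3 CPM with doxycycline. With dTAG-13 they were 62.5, 59.2 and 59.4 CPM, and with both compounds 45.7, 49.3 and 50.7 CPM. No pair of groups overlapped. Doxycycline against control had a log2 fold change of -0.40 (SE 0.0391). In the presence of dTAG-13, in libraries that contrast did not use, Ankrd1 was again lower with doxycycline, with a value of -0.31 on the log2 scale (SE 0.0408, edgeR adjusted p = 1.3e-07). Ankrd1 also fell with dTAG-13, by 0.25 on the log2 scale without doxycycline (SE 0.0386, edgeR adjusted p = 4.9e-07) and by 0.16 with it (SE 0.0413, edgeR adjusted p = 0.000756). Ankrd1 and Ccn1 therefore moved in opposite directions with doxycycline among the dTAG-13 libraries, and both passed the test.

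Amotl2 (Entrez gene 56332, chr9:102717091-102733418) encodes an angiomotin that binds YAP and holds it in the cytoplasm. It stood at 107, 102 and 102 CPM in control and at 77.6, 78.8 and 80.5 CPM with doxycycline. It was at 61.7, 60.8 and 62.8 CPM with dTAG-13 and at 63.2, 66.9 and 63.7 CPM with both compounds. Control was highest, doxycycline intermediate, and the groups with dTAG-13 lowest and close together, though without overlap. Amotl2 fell 1.68-fold with dTAG-13 in cells without doxycycline (log2 fold change -0.75, SE 0.0346, edgeR adjusted p = 1.08e-21), at percentile 1.8 of all tested genes. With doxycycline present the fall was 0.29 on the log2 scale (SE 0.0358, edgeR adjusted p = 3.19e-09). That call was lost with an offset for transcript length and GC content, where the value was -0.03 (edgeR adjusted p = 0.427). Doxycycline against control had a log2 fold change of -0.39 (SE 0.0338), while among the dTAG-13 libraries the value was 0.07 (SE 0.0366) and did not pass the test (edgeR adjusted p = 0.22).

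Axl (Entrez gene 26362, chr7:25756500-25788924) was lower in every group with dTAG-13 and differed little with doxycycline. Its levels were 821, 843 and 862 CPM in control and 818, 822 and 794 CPM with doxycycline, which overlapped. With dTAG-13 they were 657, 659 and 662 CPM, and with both compounds 659, 650.4 and 631 CPM, which also overlapped. Every library with dTAG-13 was below every library without it. Axl fell 1.28-fold with dTAG-13 in cells without doxycycline (log2 fold change -0.35, SE 0.021, edgeR adjusted p = 3.91e-18). In doxycycline-treated cells it fell by 0.33 on the log2 scale (SE 0.0211, edgeR adjusted p = 4.47e-17). With doxycycline among the dTAG-13 libraries the log2 fold change was -0.03 (SE 0.0211, edgeR adjusted p = 0.403).

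Lats2 (Entrez gene 50523, chr14:57689662-57746212), the YAP kinase that is itself a target, was likewise lower with dTAG-13. It was at 69.5, 68.7 and 69.3 CPM in control and at 64.8, 65.6 and 60.8 CPM with doxycycline. It was at 49.0, 51.5 and 53.1 CPM with dTAG-13 and at 50.9, 48.1 and 46.4 CPM with both compounds. The dTAG-13 groups overlapped each other and lay below both groups without it. Lats2 fell 1.35-fold with dTAG-13 alone (log2 fold change -0.44, SE 0.0406, edgeR adjusted p = 2.62e-12) and by 0.40 on the log2 scale in doxycycline-treated cells (SE 0.0419, edgeR adjusted p = 5.45e-11). The gene overlaps the protein-coding gene Gm52140 and a small nucleolar RNA gene, so some of its reads may belong to them. Per kilobase of exon, its relative Lats1 was 2.00 ± 0.0874 times as high in control and 2.27 ± 0.0576 times as high with dTAG-13 (SD, n = 3). Per kilobase of the longest transcript these ratios were 1.51 ± 0.066 and 1.71 ± 0.043.

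Ajuba (Entrez gene 16475, chr14:54567469-54577661) encodes a LIM-domain protein that restrains LATS kinases, and its differences with dTAG-13 were the smallest of the targets. It was at 60.8, 59.1 and 59.7 CPM in control and at 54.8, 51.8 and 57.3 CPM with doxycycline. With dTAG-13 it was at 57.0, 53.5 and 52.5 CPM, and with both compounds at 49.9, 51.4 and 50.01 CPM. Control libraries were above all others and those with both compounds below all others. Ajuba was at -0.14 on the log2 scale with dTAG-13 (SE 0.0408, edgeR adjusted p = 0.00296) and at -0.12 in doxycycline-treated cells (SE 0.0423, edgeR adjusted p = 0.017). The second call was lost without doxycycline library 3 (edgeR adjusted p = 0.131), with DESeq2 (adjusted p = 0.0578) and when libraries were scaled by size alone (edgeR adjusted p = 0.0508). Scaling by size alone also ended the first call (edgeR adjusted p = 0.301). An offset for transcript length and GC content, described with the group counts, ended both calls, with values of 0.004 and 0.06.

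Tead1 (Entrez gene 21676, chr7:112679356-112906784), a DNA-binding partner of YAP and TAZ, had the largest fall with dTAG-13 of the 9 tested genes. It was at 219, 225 and 224 CPM in control and at 209, 211 and 206 CPM with doxycycline. It was at 113, 120.5 and 116 CPM with dTAG-13 and at 119, 124 and 113 CPM with both compounds. The levels with dTAG-13 were far below those without it, and doxycycline made no separation among them. Tead1 fell 1.91-fold with dTAG-13 alone (log2 fold change -0.93, SE 0.0293, edgeR adjusted p = 2.21e-27), at percentile 0.6 of all tested genes. It fell 1.76-fold in doxycycline-treated cells (log2 fold change -0.82, SE 0.0297, edgeR adjusted p = 4.95e-25). With doxycycline among the dTAG-13 libraries the log2 fold change was 0.02 (edgeR adjusted p = 0.693).

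Tead1 has 3 relatives, and per kilobase of exon it was not the most abundant. In control cells Tead2 stood at 21.2 ± 0.426, Tead4 at 19.2 ± 0.918 and Tead1 at 16.4 ± 0.237 RPKM, while Tead3 was at 0.849 ± 0.0176 RPKM (SD, n = 3). The summed level of the 4 genes was 57.7 ± 1.46 RPKM in control and 58.2 ± 1.48 RPKM with doxycycline. It was 43.3 ± 0.459 RPKM with dTAG-13 and 44.1 ± 0.857 RPKM with both compounds. The Tead1 share of that sum was 28.4% ± 0.573 in control and 26.4% ± 0.392 with doxycycline. It was 19.9% ± 0.422 and 19.8% ± 0.601 in the dTAG-13 groups, so Tead1 was lower in proportion as well as in level.

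**Figure D3:**
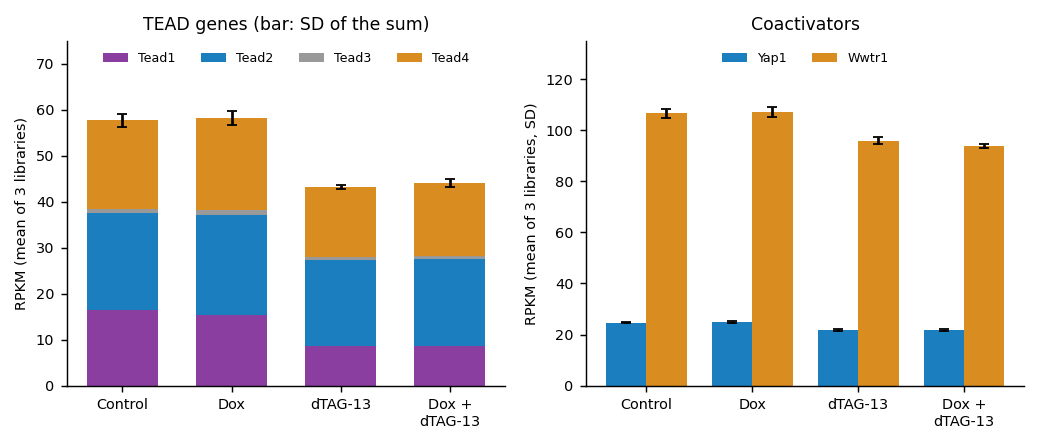
Left, RPKM of the 4 TEAD genes stacked by group, with the SD of the sum over 3 libraries; right, RPKM of Yap1 and Wwtr1 with SD. The TEAD sum is 57.7 and 58.2 RPKM without dTAG-13 and 43.3 and 44.1 RPKM with it, and Wwtr1 stands above Yap1 in every group.

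The coactivators had smaller fold changes than Tead1. Yap1 (Entrez gene 22601, chr9:7931999-8004638) was at 232, 228 and 227 CPM in control and at 229, 234 and 226 CPM with doxycycline. It was at 198, 205 and 201 CPM with dTAG-13 and at 206, 201 and 198 CPM with both compounds. All libraries with dTAG-13 lay below all libraries without it, and doxycycline gave no separation on either background. Yap1 fell by 0.18 on the log2 scale with dTAG-13 alone (SE 0.0248, edgeR adjusted p = 2.54e-08) and by 0.19 in doxycycline-treated cells (SE 0.025, edgeR adjusted p = 1.26e-08).

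Wwtr1 (Entrez gene 97064, chr3:57455644-57575910), which encodes TAZ, showed the same arrangement. It was at 499, 513 and 516 CPM in control and at 502, 513 and 519.5 CPM with doxycycline. It was at 451, 464 and 459 CPM with dTAG-13 and at 448, 453 and 446 CPM with both compounds. Groups on one side of dTAG-13 overlapped and those on opposite sides did not. Wwtr1 fell by 0.15 on the log2 scale with dTAG-13 alone (SE 0.0213, edgeR adjusted p = 5.28e-08) and by 0.19 in doxycycline-treated cells (SE 0.0214, edgeR adjusted p = 4.04e-10). Per kilobase of exon, Wwtr1 was 4.31 ± 0.122 times as high as Yap1 in control and 4.40 ± 0.0209 times as high with dTAG-13 (SD, n = 3). That ratio differed between groups by less than the spread of the control libraries. Per kilobase of the longest transcript it was 2.50 ± 0.0708 in control. Wwtr1 overlaps the pseudogene Gm16016.

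Read as a group, the members were counted against all genes. In dTAG-13 against control, the 9 genes that passed the filter were all called lower, where 32.1% of the 12910 tested genes were called lower, 30% higher and 62.1% in either direction. With libraries scaled by size alone, 8 of 9 were called lower, against 24.1% of all genes lower and 40.7% higher. With TMM, the groups did not overlap for 9 of 9 members, against 65.5% of all genes. The median log2 fold change of the 9 genes with TMM was -0.32, against 0.02 over all tested genes. In doxycycline-treated cells with dTAG-13 against those without, 8 were called lower and Ccn1 higher, where 33.4% of all genes were called lower, 30.7% higher and 64.1% in either direction. With the length and GC offset, 6 were called, 5 of them lower. The shares of all genes called with that offset were not counted, so this count has no background beside it. With TMM only, the median log2 fold change of the 9 genes was -0.19, against 0.00 over all tested genes. These comparisons share no library with each other, though each shares one group with doxycycline against control. The calls counted in them, and the p-values given for single members there, are therefore not independent of the choice. That holds most for Ccn1, and next for Ankrd1 and Amotl2, both at percentile 3.1 in doxycycline against control.

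In doxycycline plus dTAG-13 against dTAG-13, 2 of 9 were called, Ccn1 higher and Ankrd1 lower, where 20.4% of all genes were called, 10.7% higher and 9.64% lower. That share is near the background and is no result about the group. With libraries scaled by size alone, 6 of 9 were called, 5 of them lower: Lats2, Axl, Ajuba and Wwtr1 joined Ankrd1. Of all genes, 7.17% were then called higher and 16.5% lower. In doxycycline against control, 6 of 9 had groups that did not overlap, all of them lower, against 24.1% of all genes. That contrast was behind the choice of these genes, so the count is a description and no result about the group. The 6 genes were Ccn1, Ankrd1, Amotl2, Lats2, Ajuba and Tead1, and the log2 fold changes of the last 3 were -0.12, -0.13 and -0.09. Yap1 and Wwtr1 were both at 0.01 there. The difference of the doxycycline effects lay between -0.04 and 0.11 for 7 of the 9 genes, apart from Ccn1 and Amotl2.

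**Figure D4:**
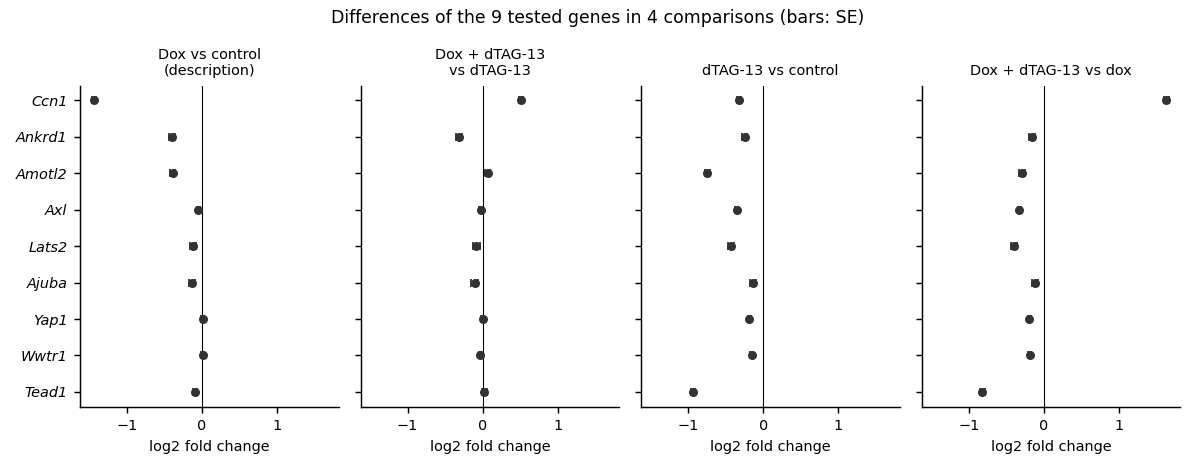
The log2 fold change of each of the 9 tested genes (points; bars, SE) in 4 comparisons, with 0 marked by a line; doxycycline against control is a description. Ccn1 is at -1.44 and 0.52 with doxycycline and at -0.32 and 1.64 with dTAG-13, and Tead1 is at -0.93 and -0.82 with dTAG-13.

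Transcript length moved with the dTAG-13 comparisons across the genome. Of the tested genes, 91% had a length. The median log2 fold change of the 2704 genes with transcripts of 5 kb or longer was -0.22 in dTAG-13 against control and -0.31 in doxycycline plus dTAG-13 against doxycycline. For shorter transcripts it was 0.06 in both. Among the members, the longest transcripts were those of Tead1, at 9964 bases, Yap1, at 5282, and Lats2, at 5191, while Ccn1 had 2019 and Ankrd1 2020. With an offset that removes each library's trend on length and GC content, the fall of Tead1 was 0.62 on the log2 scale with dTAG-13 alone and 0.42 in doxycycline-treated cells. Tead1 still passed the test in both. Lats2 went to -0.22 and -0.14 and Axl to -0.19 and -0.14, all still called. Ankrd1 went the other way, to -0.40 and -0.33. The fall of Yap1 in doxycycline-treated cells went to -0.04 (edgeR adjusted p = 0.149) and, like that of Amotl2, no longer passed. Ajuba changed sign and passed in neither comparison (edgeR adjusted p = 0.95 and 0.244). Ccn1 stood at -0.40 and 1.53 with the offset.

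**Figure D5:**
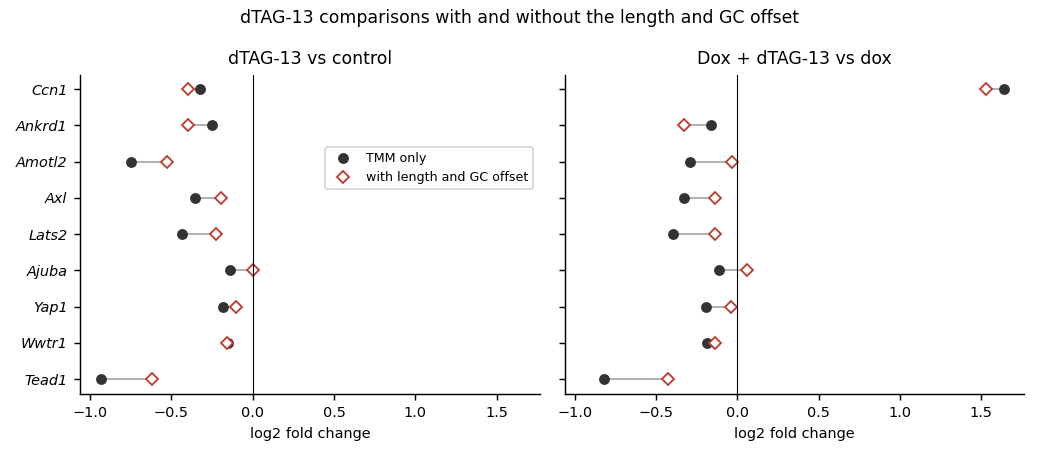
The log2 fold change of the 9 tested genes in the dTAG-13 comparisons, with TMM scaling only (filled circles) and with an offset for transcript length and GC content (open diamonds). The values of Tead1, Amotl2, Lats2 and Axl move toward 0 and those of Ankrd1 away from it. Ccn1 moves from -0.32 to -0.40 with dTAG-13 alone and from 1.64 to 1.53 in doxycycline-treated cells.

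The other genes of the pathway were counted from lists of 55 genes, of which 48 passed the filter. Of 15 tested genes of the kinase module and its upstream regulators, 11 fell and 3 rose with dTAG-13 alone, and 11 fell and 2 rose in doxycycline-treated cells. Of 10 tested cofactors and inhibitors, 7 fell with dTAG-13 alone and 10 in doxycycline-treated cells, and none rose. Of 23 further published targets, 10 fell and 6 rose with dTAG-13 alone, and 13 fell and 4 rose in doxycycline-treated cells. The shares called lower over all tested genes were 32.1% and 33.4%, and those called higher were 30% and 30.7%. The counts of the further targets were closer to these shares with dTAG-13 alone than in doxycycline-treated cells. With the length and GC offset, 35 of the 48 were called with dTAG-13 alone, 28 of them lower (37 and 28 with TMM only). In doxycycline-treated cells 33 were called, 25 of them lower (40 and 34 with TMM only). The shares of all genes called with that offset were not counted. The medians below and the values of single list genes are with TMM only. No list was tested as a set. The median log2 fold changes of the 48 genes were -0.26 and -0.32, against 0.02 and 0.00 over all tested genes. Fat1, an atypical cadherin upstream of the kinases, fell by 1.16 with dTAG-13 alone (SE 0.0421, edgeR adjusted p = 1.99e-24) and by 0.94 in doxycycline-treated cells (SE 0.0429, edgeR adjusted p = 3.79e-21). Amot, the founding angiomotin, fell by 0.94 (SE 0.0644, edgeR adjusted p = 3.15e-16) and by 0.88 (SE 0.0657, edgeR adjusted p = 4.56e-15) in the same comparisons.

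Among the genes of these lists that rose with dTAG-13 without doxycycline was Wwc1, the upstream scaffold KIBRA, at 0.64 on the log2 scale (SE 0.0868, edgeR adjusted p = 2.82e-08). The genes that rose most in doxycycline-treated cells were Gadd45a, a stress-response gene, with 0.52 (SE 0.0325, edgeR adjusted p = 4.05e-17), and Ereg, an EGF receptor ligand, with 0.36 (SE 0.0317, edgeR adjusted p = 6.91e-13). With doxycycline among the dTAG-13 libraries, 6 list genes rose and 9 fell of 48, against 10.7% higher and 9.64% lower over all genes. With libraries scaled by size alone 6 rose and 19 fell, against 7.17% and 16.5% over all genes. Thbs1, the matricellular protein thrombospondin-1, rose by 0.50 there (SE 0.0469, edgeR adjusted p = 4.23e-11), as did Wwc1 by 0.39 (SE 0.0794, edgeR adjusted p = 0.000262). Hbegf, another EGF receptor ligand, fell by 0.49 (SE 0.0298, edgeR adjusted p = 1.11e-16), and Frmd6, an upstream Hippo regulator, by 0.19 (SE 0.0324, edgeR adjusted p = 1.55e-05).

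The pattern of Ccn1 over the 12 libraries was compared with that of 10081 genes of at least 5 CPM, by Pearson's r of log2 CPM, as a description over 4 group means with 3 libraries each. The most alike were Klf6 (r = 0.993), Srsf6 (r = 0.98), Nop58 (r = 0.98), Srsf5 (r = 0.978) and Nle1 (r = 0.975). Klf6 averaged 348 CPM in control, 190.4 CPM with doxycycline, 324 CPM with dTAG-13 and 405 CPM with both compounds, the same order as Ccn1. A high r does not give the size of a change. Srsf6 had a narrower range, at 339 CPM in control, 294 CPM with doxycycline, 322 CPM with dTAG-13 and 338 CPM with both compounds. The other members were unlike Ccn1 on this measure: r ran from 0.126 for Ankrd1 and -0.05 for Amotl2 to -0.556 for Wwtr1. Among 8 tested genes of a list of serum response factor and immediate early genes, r was 0.967 for Ier2, 0.964 for Fos and 0.957 for Egr1. It was 0.787 for Fosb, 0.597 for Junb, 0.014 for Srf, -0.101 for Tagln and -0.387 for Vcl. Fos, Fosb and Tagln, at means of 2.02, 1.75 and 0.584 CPM, lay under the 5 CPM asked of the compared genes. All these values of r share their libraries and scaling, and they include the doxycycline and control libraries behind the choice. Egr1 averaged 279 CPM in control, 109 CPM with doxycycline, 188 CPM with dTAG-13 and 238 CPM with both compounds.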

How the data were processed

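RNA from 12 libraries of MC38-idAdpgkG cells was enriched with oligo(dT) and made into NEBNext Ultra II libraries, per the labels' protocols. The deposited table held raw counts of reads by Entrez gene ID, with no normalization, made with the Subread package, per the file headers. The submitters' processing notes name bcl2fastq 2.17, featureCounts and mm10. For the annotation, the strand setting and multi-mapping reads, the choice made is not given in the sources used, so values of overlapping genes are uncertain. Of 27179 IDs, 25275 were named from the RefSeq annotation of GRCm38.p6 and 18 from GENCODE, and 1886 had no symbol.

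In R 4.3.3, edgeR 4.0.16 was fitted to all 12 libraries with 1 mean per group, TMM factors of 0.9647 to 1.0349 and filterByExpr, which left 12910 genes. Tests were robust quasi-likelihood F tests, two-sided, with Benjamini-Hochberg adjustment over all 12910 genes. SE are those of the log2 fold change, derived from the F statistic. CPM used TMM-scaled library sizes, and RPKM divided CPM by the length of the union of exons, or of the longest transcript as an added alternative. The code was tested on simulated data.

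The members and gene lists were chosen with earlier results of these data known. Members were always named. From the 3 pathway lists, the 2 called genes with the largest positive and the 2 with the largest negative log2 fold change in each tested comparison were named, at a mean of at least 1 CPM; 1 gene that met this is not reported here. The 5 genes most like Ccn1 needed at least 5 CPM. Egr1, Fos and Ier2 were picked from a list of 12 serum response factor and immediate early genes after their values were seen.

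Alternatives were RLE factors, library size only, DESeq2 1.42.0, no low-count filter, 1 CPM in 3 libraries, a fit on the compared groups alone, a replicate block, an offset for transcript length and GC content (splines with 5 degrees of freedom), both together, and leaving out each library.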

Additional observations from a re-analysis of the deposited data

Results flagged for a closer look

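Ccn1 differed between the groups in opposite directions: the doxycycline libraries were all below control without dTAG-13 and all above the dTAG-13 libraries with it. The doxycycline effect with dTAG-13 minus that without it was 1.958 on the log2 scale and was not tested. The dTAG-13 effects on Ccn1 with and without doxycycline were of opposite direction too.

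For Amotl2 the same difference was 0.457, also not tested. Its doxycycline libraries lay below control, and those with both compounds lay above those with dTAG-13 alone, but that second difference was 0.065 and did not pass the test (edgeR adjusted p = 0.22).

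The differences for the immediate early genes outside the group were 1.689 for Egr1, 1.945 for Fos and 0.883 for Ier2, and were not tested. Of their doxycycline effects among the dTAG-13 libraries, that of Fos did not pass the test (0.483, edgeR adjusted p = 0.0568).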

How the results depend on the processing

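Of the 567 alternative values of the 27 tested log2 fold changes of single members, 551 kept their side of the threshold. Of the rest, 8 lost the call, 4 gained one and 4 changed sign where the main or the alternative value was called. The 551 include changes of sign where neither value was called, as for Yap1 and Tead1 in doxycycline plus dTAG-13 against dTAG-13. There Yap1 went from -0.001 to at most 0.024, and Tead1 from 0.021 to as low as -0.014. The 4 sign changes with a call were all of Ajuba. In dTAG-13 against control they were 0.004 with the length and GC offset and 0.003 with the replicate block added. In doxycycline plus dTAG-13 against doxycycline they were 0.059 with either. With library size only, 6 members (2 with TMM) and 25 pathway list genes (15 with TMM) were called in doxycycline plus dTAG-13 against dTAG-13. That scaling moved the median of all genes in the same comparison from -0.001 to -0.035, and in dTAG-13 against control from 0.02 to 0.11. Leaving out each library in turn gave 9 members called in dTAG-13 against control, 8 to 9 in doxycycline plus dTAG-13 against doxycycline and 2 in doxycycline plus dTAG-13 against dTAG-13. The pathway list counts were then 35 to 38, 34 to 40 and 12 to 15. With the replicate block, 9, 9 and 2 members and 37, 39 and 15 pathway list genes were called. The shares of all genes called were not counted with the block or with a library left out. With TMM and all 12 libraries they were 62.1%, 64.1% and 20.4%, in the same order of comparisons. These counts are therefore no result about the group. Libraries with the same replicate number did not deviate together (correlations -0.021 to 0.08, and 3 of 12 libraries closest to their own number), so they were not treated as paired. With 3 technical libraries a group, variation between cultures was not measured, and the reads of Ccn2 allowed no comparison.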
